A study of Mus musculus with 6 samples.

Results

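The Schlafen genes of mouse chromosome 11 were examined in bone marrow stromal cells (BMSCs) of wild-type mice (WT, 3 arrays) and of mice knocked out for microRNA-188 (KO188, 3 arrays). The 7 members Slfn1, Slfn2, Slfn3, Slfn4, Slfn5, Slfn8 and Slfn9 were taken by name, each through the probe set that the platform annotation pairs with that symbol alone, and they are 7 of 19938 genes tested. All mice were on the C57BL/6 background and 6 months old. BMSCs are the adherent marrow cells that can form osteoblasts or adipocytes, and both groups were grown with 10% fetal calf serum, 100 nM dexamethasone, 10 mM beta-glycerophosphate and 0.05 mM L-ascorbic acid-2-phosphate, a medium that drives bone formation. The labels give neither the deleted segment nor the sex of the mice, and they do not say whether the knockout was limited to a cell type. The arrays of a group are labelled as biological replicates, but separate mice or cultures are not stated, and p-values here cover the spread between these arrays only.

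Schlafen proteins are found in mammals and take their name from the German word for sleep, because early members slowed the growth of T lymphocytes and fibroblasts. The mouse genes fall into a short class (Slfn1 and Slfn2), an intermediate class (Slfn3 and Slfn4) and a long class (Slfn5, Slfn8 and Slfn9) whose proteins carry an added helicase-like domain. Many of them are known to be induced by type I interferon, and several family members bind or cut transfer RNA, through which they limit protein synthesis and the growth of viruses.

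The RefSeq hairpin of Mir188, the microRNA gene named in the genotype, gives the mature arms below in build GRCm38.p6, printed because they are what the knockout is meant to remove. Capitals mark the seed, bases 2 to 8.
mmu-miR-188-5p, chrX:7248031-7248051, minus strand: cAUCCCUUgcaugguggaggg
mmu-miR-188-3p, chrX:7247992-7248012, minus strand: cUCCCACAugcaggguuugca
The Mir188 probe set read 7.15, 7.13 and 7.16 in WT and 7.03, 7.13 and 7.09 in KO188, and the groups met at WT replicate 2 and KO188 replicate 2. Its log2 difference of -0.06 did not pass (limma adjusted p = 0.24), though it did with quantile normalization (-0.10, adjusted p = 0.029) and with arrays centred on their medians (-0.11, adjusted p = 0.040). Which bases of the locus the probe set covers is unknown here, so it does not check the genotype labels.

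Promoter windows of the members, 250 bases before to 50 after the start in RefSeq GRCm38.p6, were searched for short motifs. The search was planned for all members, since many Schlafen genes are known to be induced by type I interferon. Interferon response elements lie close to the start of many induced genes. All 7 members matched a window. The core of the interferon-stimulated response element, here GAAA, any 2 bases and GAAA on either strand, was found in 3 of the 7 (Slfn5, Slfn8 and Slfn9), against 3.99% of the 27025 genes with a window. The Slfn8 and Slfn9 matches have the same letters and lie in windows that align closely, so they are not independent finds. Enrichment of the motif in the family was not tested. The STAT dimer motifs, TTC and GAA set 3 or 4 bases apart, which read alike on both strands, were found in 0 of the 7 members, against 9.55% of genes for the spacing of 3 and 8.01% for that of 4. A match describes letters and does not show that a factor binds there. The windows of the 3 genes with a match are given with that match in capitals, beside the window of Slfn2, which showed the largest difference among the members and held no match.
Slfn8 promoter, chr11:83020761-83021060, minus strand: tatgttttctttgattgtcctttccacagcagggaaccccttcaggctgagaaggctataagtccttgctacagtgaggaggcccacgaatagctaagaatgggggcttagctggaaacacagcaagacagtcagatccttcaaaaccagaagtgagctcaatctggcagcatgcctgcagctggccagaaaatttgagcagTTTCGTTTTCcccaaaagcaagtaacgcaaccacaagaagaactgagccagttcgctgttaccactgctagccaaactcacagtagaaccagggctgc
Slfn9 promoter, chr11:82991781-82992080, minus strand: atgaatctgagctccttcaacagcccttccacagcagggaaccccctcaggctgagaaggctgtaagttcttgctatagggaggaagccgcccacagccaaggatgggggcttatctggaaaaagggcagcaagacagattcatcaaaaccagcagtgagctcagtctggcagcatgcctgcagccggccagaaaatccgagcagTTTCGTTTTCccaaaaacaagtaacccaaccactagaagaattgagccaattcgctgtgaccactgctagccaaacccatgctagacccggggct
Slfn5 promoter, chr11:82951852-82952151, plus strand: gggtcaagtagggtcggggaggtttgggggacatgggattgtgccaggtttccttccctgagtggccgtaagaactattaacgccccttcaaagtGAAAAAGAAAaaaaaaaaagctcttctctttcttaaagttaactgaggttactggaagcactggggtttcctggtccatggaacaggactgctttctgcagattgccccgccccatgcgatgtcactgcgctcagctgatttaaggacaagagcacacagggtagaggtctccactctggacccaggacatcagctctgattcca
Slfn2 promoter, chr11:83064862-83065161, plus strand: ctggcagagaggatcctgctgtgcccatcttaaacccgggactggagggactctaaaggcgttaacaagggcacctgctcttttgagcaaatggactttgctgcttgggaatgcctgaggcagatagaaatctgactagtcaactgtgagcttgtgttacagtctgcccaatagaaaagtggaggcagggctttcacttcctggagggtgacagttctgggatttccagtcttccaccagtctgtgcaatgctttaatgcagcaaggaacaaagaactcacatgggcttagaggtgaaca
Slfn8 has a pair of windows, of which the upstream one is given, and the same match lies in both. In Slfn8 the match lay 48 to 39 bases before the start in the window given, and 136 to 127 bases before the start in the other window. In Slfn9 it lay 45 to 36 bases before the start. For both genes the match was on the strand opposite to the gene and had the same letters, GAAAACGAAA. In Slfn5 it lay 155 to 146 bases before the start on the gene's own strand and read GAAAAAGAAA, at the edge of a run of A. A local alignment of the Slfn8 and Slfn9 windows ran over 284 columns with 84.9% identity. None of the other 20 pairs of member windows gave more than 36 aligned columns.

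On the arrays, 5 of the 7 Schlafen genes were higher in KO188, 0 were lower and 2 did not pass limma's test (adjusted p under 0.05). Slfn2 and Slfn8 rose more than 4-fold, Slfn9 rose 2.36-fold, and Slfn3 and Slfn5 rose by less than 1.5-fold. Over all 19938 tested genes 29.8% passed in either direction, 13.3% as higher and 16.5% as lower. The median difference of the members was 0.54 on the log2 scale, against -0.01 over all tested genes. The lowest KO188 array lay above the highest WT array for 6 of the 7 members, against 18.8% of tested genes. In these bulk cultures, a different number of cells of a type and a different amount of RNA per cell cannot be told apart, and since no label names a batch, the knockout and anything else common to the KO188 cultures alone cannot be told apart either.

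Olfactory and vomeronasal receptor genes, which stromal cells are not known to use, gave a rough floor. The 95th percentile of the mean levels of 1194 such genes was 6.72 on the log2 scale and is called the receptor guide here. Of the members, 4 (Slfn2, Slfn3, Slfn8 and Slfn9) lay above it over the 6 arrays, and 3 (Slfn1, Slfn4 and Slfn5) lay below it in both groups. Differences between dim values come out too small on such arrays, and the sizes given for those 3 are inexact. Each member was read by 1 probe set only. Schlafen genes are close relatives, and signal of Slfn8, Slfn9 and the neighbouring Slfn10-ps in particular can be shared between copies.

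**Figure D1:**
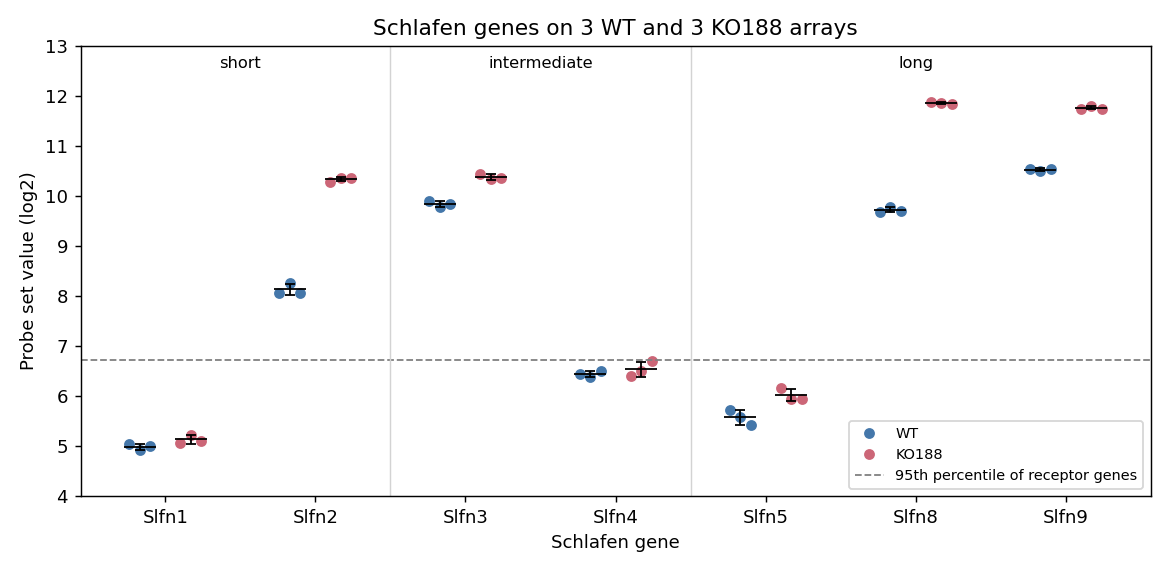
Probe set values (log2) of the 7 Schlafen genes, ordered by class, with 1 point per array, a bar at the group mean and whiskers of 1 SD (n = 3). The WT and KO188 points stand far apart for Slfn2, Slfn8 and Slfn9, closer for Slfn3 and Slfn5, and touch or overlap for Slfn1 and Slfn4, while Slfn1, Slfn4 and Slfn5 lie under the dashed receptor guide of 6.72.

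Among the short members, Slfn2 rose and Slfn1, a dim probe set, did not pass. Slfn2 is known for keeping T cells and monocytes at rest and for protecting transfer RNA from cleavage. Its log2 values were 8.06, 8.27 and 8.07 in WT and 10.29, 10.37 and 10.36 in KO188. The groups did not overlap, and the lowest KO188 array stood 2.02 above the highest WT array. The rise was 4.61-fold (log2 difference 2.20, SE 0.061, 95% interval 2.06 to 2.35, limma adjusted p = 1.7e-06), the 73rd largest increase among the tested genes. Slfn1, which slows growth of thymocytes and fibroblasts when it is overexpressed, read 5.05, 4.93 and 4.999 in WT and 5.06, 5.23 and 5.11 in KO188. Every KO188 array was above every WT array, but the gap was 0.0092, smaller than the range within either group. The difference of 0.14 (SE 0.054, 95% interval 0.01 to 0.27, unadjusted p = 0.037, limma adjusted p = 0.10) did not pass, at a level close to the 4.88 median of the receptor genes.

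Of the intermediate members, Slfn3 rose and Slfn4, another dim probe set, did not pass. Slfn3, studied in regulatory T cells and in the differentiation of gut epithelium, read 9.90, 9.78 and 9.85 in WT and 10.44, 10.35 and 10.36 in KO188. The groups did not overlap, with a gap of 0.45 between them. The rise was 1.45-fold (log2 difference 0.54, SE 0.041, 95% interval 0.44 to 0.64, limma adjusted p = 0.00016). Slfn4, a gene of monocytes and macrophages, read 6.45, 6.38 and 6.50 in WT and 6.40, 6.50 and 6.70 in KO188. Its groups overlapped, and KO188 replicate 3 alone lay above every WT array. The difference was 0.09 (SE 0.079, 95% interval -0.10 to 0.28, limma adjusted p = 0.46), and 0.0071 without that array. An interval reaching 0.28 does not show that Slfn4 had the same level in both groups.

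All 3 long members rose. Slfn8, linked to T cell activation and to autoimmune inflammation, read 9.68, 9.78 and 9.71 in WT and 11.88, 11.87 and 11.83 in KO188. The KO188 arrays lay within 0.045 of each other and 2.05 above the highest WT array. The rise was 4.39-fold (log2 difference 2.13, SE 0.034, 95% interval 2.05 to 2.21, limma adjusted p = 1.1e-07), which is the lowest adjusted p of the family. Slfn9, the close relative of Slfn8 whose promoter is printed beside it, read 10.55, 10.50 and 10.54 in WT and 11.75, 11.81 and 11.75 in KO188. The groups stood 1.20 apart at their nearest arrays. It rose 2.36-fold (log2 difference 1.24, SE 0.030, 95% interval 1.17 to 1.31, limma adjusted p = 8.6e-07). Slfn5, whose human counterpart is an interferon-induced gene that can act on transcription in the nucleus, read 5.73, 5.58 and 5.42 in WT and 6.16, 5.95 and 5.95 in KO188. Its groups did not overlap, with a gap of 0.22 that is smaller than the 0.31 range of the WT arrays. The rise was 1.36-fold (log2 difference 0.44, SE 0.093, 95% interval 0.22 to 0.67, limma adjusted p = 0.012), between levels that both lie under the receptor guide, and the adjusted p reached 0.048 without WT replicate 2.

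Among the 4 members above the receptor guide, the measured differences ran, from the largest, Slfn2, Slfn8, Slfn9 and Slfn3. Slfn1, Slfn4 and Slfn5 were not placed in this order, since differences between values under the guide come out too small. Of the 21 pairs of members, 5 had 95% intervals of the log2 difference that overlapped. The interval of Slfn2 overlapped that of Slfn8, and the interval of Slfn3 overlapped that of Slfn5. Those of Slfn1, Slfn4 and Slfn5 overlapped in each of their 3 pairs. The interval of Slfn9 overlapped that of no other member, and among the members above the guide its measured rise lay below those of Slfn2 and Slfn8 and above that of Slfn3. The intervals are for each gene alone and are not adjusted for the number of pairs, and for the 3 dim members they do not bound the true difference. The 3 members with a response element match had log2 differences of 2.13 (Slfn8), 1.24 (Slfn9) and 0.44 (Slfn5, under the guide). The 4 without a match had 2.20 (Slfn2), 0.54 (Slfn3), 0.14 (Slfn1) and 0.09 (Slfn4), the last pair under the guide and not past the test.

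**Figure D2:**
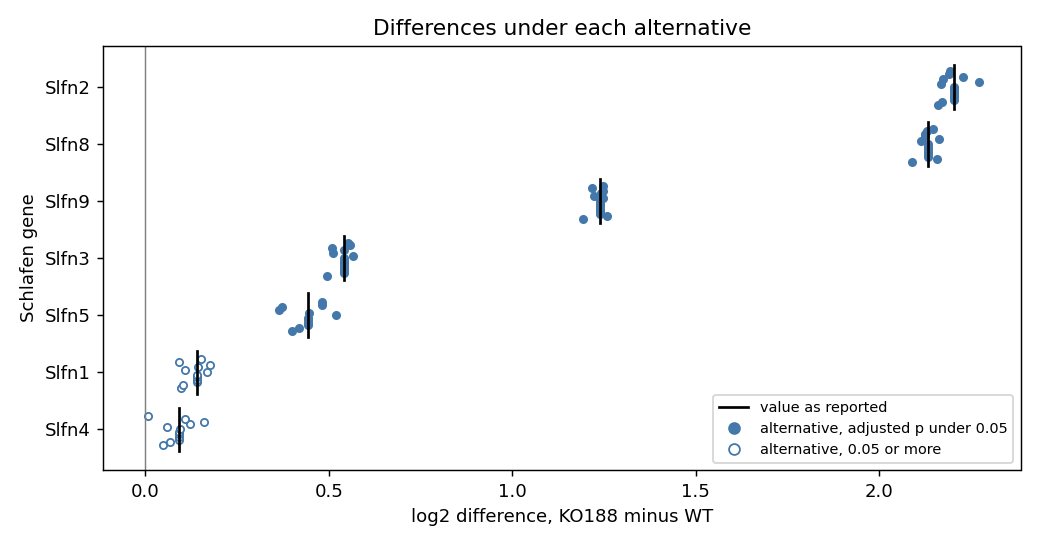
Log2 differences (KO188 minus WT) of the 7 members as reported (black bars) and under each alternative of scaling, filtering, probe choice, variance model, replicate block and left-out array (points, filled where the adjusted p was under 0.05). The points of Slfn2, Slfn8, Slfn9, Slfn3 and Slfn5 are filled throughout, those of Slfn1 and Slfn4 are open throughout, and each cloud is narrow beside the distance from Slfn9 to Slfn2 or Slfn3.

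Other Schlafen-named genes followed the cluster only in part. Slfn10-ps, annotated as a pseudogene by its name and lying between Slfn8 and Slfn2, read 8.29, 8.50 and 8.47 in WT and 9.85, 9.75 and 9.74 in KO188. It rose 2.57-fold without overlap between groups (log2 difference 1.36, SE 0.062, 95% interval 1.21 to 1.51, limma adjusted p = 1.7e-05). Slfnl1, a Schlafen-like gene on chromosome 4, had group means of 7.67 ± 0.10 (SD, n = 3) in WT and 7.60 ± 0.25 in KO188 and did not pass (limma adjusted p = 0.71). Slfn5os, a long noncoding RNA gene that overlaps Slfn5 on the opposite strand, differed by 0.14 (limma adjusted p = 0.14), under the receptor guide in both groups. Slfn14, known from platelets, was not analysed here.

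The genes on either side of the cluster were read in chromosomal order from the RefSeq gene table. Of the 20 nearest tested genes, 10 on each side with Slfn5os among them, 4 were higher, 3 were lower and 13 did not pass, with a median difference of -0.02. Over all tested genes 13.3% were higher and 16.5% were lower. On the Slfn5 side, the 7 genes from Rffl to Slfn5os did not pass, and on the Slfn3 side neither did the 4 from Ap2b1 to 1700020L24Rik. The ends of these stretches were set after the values were seen. Whether calls are fewer near the cluster was not tested. Ccl5, a chemokine gene that draws T cells and monocytes, rose 2.28-fold from 11.92 ± 0.02 (SD, n = 3) to 13.11 ± 0.00098 (limma adjusted p = 3.7e-07). Ccl9, a chemokine gene beside it in this order, fell by 0.65 on the log2 scale (limma adjusted p = 4.9e-05). Mmp28, a matrix metalloproteinase gene, rose by 0.31, Heatr9 rose by 0.49, and Zfp830, a zinc finger gene, rose by 0.22. E230016K23Rik fell by 0.28. Lig3, a DNA ligase gene, fell by 0.13 (limma adjusted p = 0.017), a call that ended without WT replicate 1 (-0.12, adjusted p = 0.063) or WT replicate 2 (-0.12, 0.058). With arrays centred on their medians, and with quantile normalization, 4 neighbours were higher and 6 lower, the added falls being Cct6b, Nle1 and Gas2l2. Heatr9, Lig3, E230016K23Rik, Cct6b, Nle1 and Gas2l2 were named after their values were seen.

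**Figure D3:**
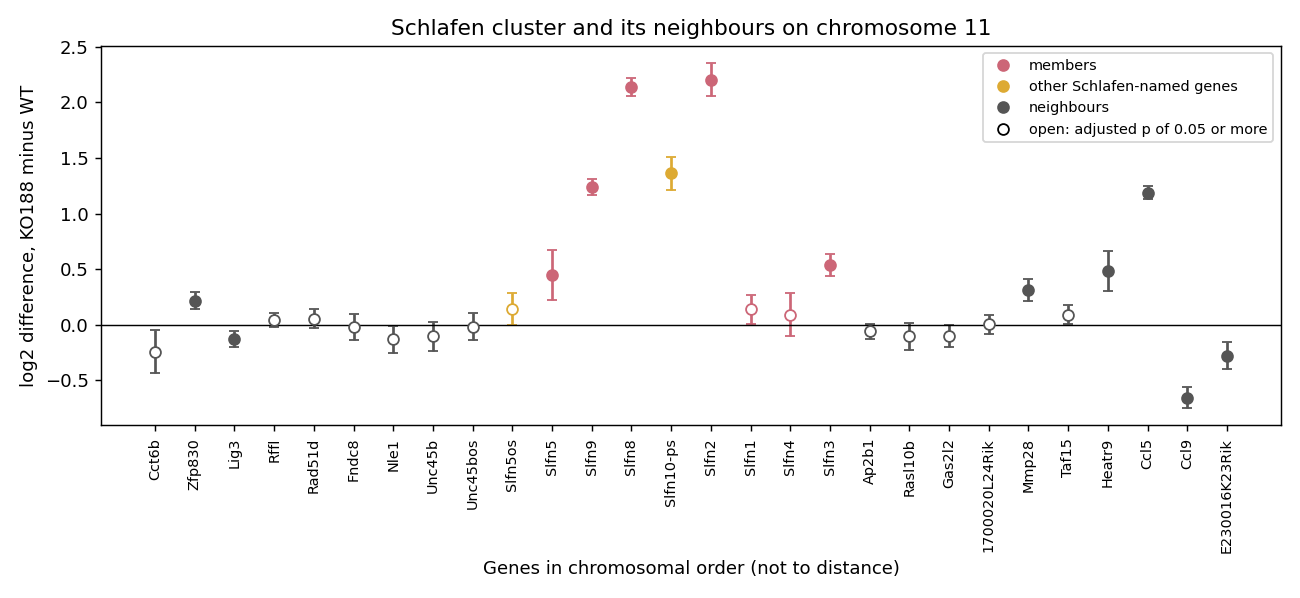
Log2 differences (KO188 minus WT, points) with 95% intervals (whiskers) for the Schlafen genes and 20 neighbours in their order along chromosome 11, not drawn to distance. The largest differences are those of Slfn8 and Slfn2, with Slfn10-ps at 1.36 between them. Slfn1, Slfn4 and the genes directly flanking the cluster have open points close to 0, while Ccl5 stands at 1.19.

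Because Schlafen genes are known as interferon targets, the parts of the interferon signal path were read beside them. Of 15 measured genes of that list 7 rose, 2 fell and 6 did not pass, with a median difference of 0.07. Usp18, the feedback protease of ISG15, rose 6.40-fold, Irf7, a transcription factor that amplifies the type I response, rose 12.0-fold, Stat2 rose 5.33-fold and Irf9, its partner in the factor that binds the response element, rose 2.61-fold. These genes were named for having the lowest p in the list, so their sizes do not describe the list as a whole. The 4.61-fold of Slfn2 and the 4.39-fold of Slfn8 lay between these sizes. Slfn9 (2.36-fold), Slfn3 (1.45-fold) and Slfn5 (1.36-fold) lay below them all. Of the receptor genes, Ifngr2 fell by 0.15 and Ifnar1 fell by 0.14 (limma adjusted p = 0.039). Leaving out an array ended the Ifnar1 call for KO188 replicate 2 (-0.13, adjusted p = 0.11) and replicate 3 (-0.14, 0.11), and likewise for replicates 1 (-0.13, 0.13) and 3 (-0.12, 0.12) of WT. Irf1 rose 2.01-fold, Jak2 rose 1.70-fold and Socs1 rose 1.66-fold.

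Genes of quiescence and entry into the cell cycle were read because Schlafen genes are known for growth arrest. Of 21 measured genes 9 rose, 6 fell and 6 did not pass, with a median difference of 0.09. Ccnd3, a D-type cyclin gene, rose 1.45-fold and the cell cycle inhibitor gene Cdkn1b rose 1.23-fold. Mki67, a marker of dividing cells, fell by 0.54 and the kinase gene Cdk6 fell by 0.37. With arrays centred on their medians 7 rose and 8 fell.

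Of 4 measured genes that cut transfer RNA, restrain such cutting or mark it against cutting, 3 fell and 0 rose, with a median difference of -0.19. Trdmt1, a transfer RNA methyltransferase gene, fell by 0.55 (limma adjusted p = 0.00021), the processing nuclease gene Elac2 fell by 0.20 and the methyltransferase gene Nsun2 fell by 0.19. Rnh1, the inhibitor of angiogenin, did not pass.

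Of the markers of blood cells in which Schlafen genes were mainly studied, few passed. Most T lymphocyte and macrophage markers were dim, where differences come out too small, so few calls do not show an equal cell content. Of 12 measured T lymphocyte markers, 0 rose and 1 fell, Cd28 (-0.38, limma adjusted p = 0.016). That call ended without WT replicate 2 (-0.37, adjusted p = 0.066), KO188 replicate 1 (-0.37, 0.063) or KO188 replicate 3 (-0.34, 0.065), and 2 markers fell without KO188 replicate 2. The list's mean level ran from 6.48 to 6.55 over the WT arrays and from 6.41 to 6.53 over the KO188 arrays, with 7 of the 12 at or below the receptor guide in both groups. Its summed log2 level ran from 77.8 to 78.6 in WT and from 76.9 to 78.4 in KO188. Of 18 macrophage and monocyte markers, 13 were at or below the guide in both groups, and the summed log2 level ran from 117.0 to 117.3 in WT and from 117.0 to 118.6 in KO188. In that list 1 rose, Mpeg1 (1.32, limma adjusted p = 0.00022), from a level of 5.72 under the guide to 7.04. Cd53 fell by 0.37 (limma adjusted p = 0.032) at a level under the guide, a call that ended without WT replicate 1 (-0.41, adjusted p = 0.056) or without KO188 replicate 1 (-0.35, 0.10), 2 (-0.37, 0.086) or 3 (-0.37, 0.088). Their part in the Schlafen differences was not tested.

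Stromal and osteoblast markers, those of the labelled cell type, were mostly above the guide. Of 15 measured, 1 lay at or below the guide in both groups, and 9 were higher and 1 was lower in KO188. The marker under the guide in both groups was Ibsp (5.18 in WT, 5.23 in KO188). Sp7 was under it in WT only (6.41 in WT, 6.77 in KO188). Runx2, Bglap and Spp1 were listed but not analysed here. Alpl, the alkaline phosphatase gene of mineralising cells, rose 4.23-fold. Pdgfra rose 1.82-fold, Cxcl12 rose 1.32-fold and Nt5e fell by 0.85. Of 5 platelet and megakaryocyte markers 1 fell, Ppbp (-1.06), from a level of 12.26 in WT to 11.20 in KO188. The other 4 did not pass, and their group means were far lower, from 5.79 (Pf4, KO188) to 7.72 (Itga2b, WT).

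**Figure D4:**
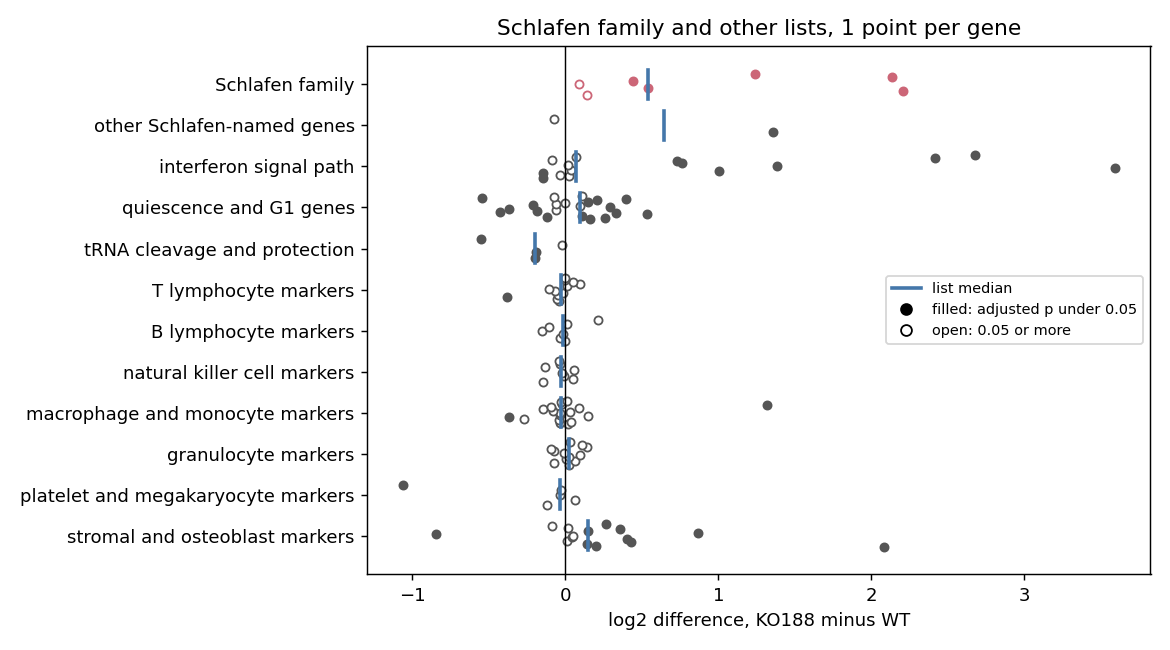
Log2 differences (KO188 minus WT) of the Schlafen family and of the other lists, 1 point per gene, filled where the adjusted p was under 0.05, with the list median as a blue bar. The Schlafen genes spread from 0.09 to 2.20, the interferon signal path splits into genes near 0 and genes up to 3.59, and the lymphocyte, natural killer and granulocyte markers cluster around 0.

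The genes whose profile over the 6 arrays lay nearest to each rising member were found by the Euclidean distance between log2 values taken relative to each gene's WT mean. The nearest to Slfn2 were Trim30a (2.24), Slfn8 and Ifit2 (2.20), of which Trim30a and Ifit2 belong to interferon-induced families. Those nearest to Slfn8 were Ms4a4d (2.15), Nmi (2.11) and Apol6 (2.06). Slfn9 lay nearest to Uba7 (1.22), the activating enzyme of ISG15, Rspo2 (1.24), an enhancer of Wnt signalling, and Ehd3 (1.21). Slfn3 lay nearest to Ebf1 (0.55), a transcription factor gene of B cells and stroma, B4galt5 (0.53) and Pdk4 (0.55), a kinase gene of fuel choice. Slfn5 lay nearest to Csrnp1 (0.41), Rnf17 (0.39) and Fam43a (0.40). The values in parentheses are log2 differences, KO188 minus WT. With 6 arrays in 2 groups this likeness mostly reflects the size of the difference.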

How the data were processed

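The authors deposited log2 expression values of 35556 probe sets on each array. Per the submitters' processing notes, the tools were Affymetrix Expression Console, Partek and RMA, without versions or roles. RMA works on the log2 scale after background correction and between-array equalisation, and it compresses dim genes. Array medians ran from 7.43 to 7.50. Arrays correlated across tested genes at r = 0.9988 to 0.9993 within groups and 0.9909 to 0.9912 between them (genes are not independent replicates), and their number limits the precision. For the authors' build and annotation, the sources used here state nothing.

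Probe sets were named through GEO's platform annotation. Of 23410 listed, 21789 have 1 symbol, 1621 have several and were not named, and 0 of those include a Schlafen symbol. By Entrez identifier 21698 matched RefSeq GRCm38.p6 and 0 symbols changed. The probe set with the highest mean was used for each of 19938 genes, with no filter on dim values. Groups came from sample titles. The fit was KO188 minus WT in limma 3.58.1 (R 4.3.3), by lmFit and plain eBayes with no covariate, with Benjamini-Hochberg adjustment across every tested gene and a threshold of 0.05, and was checked on simulated data. Promoters were searched and aligned (match 2, mismatch -3, gap opening -5, extension -2) with Biopython 1.88 under Python 3.11.15, and plots were made in matplotlib 3.10.9.

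The members and lists were chosen with earlier results of these data known. Named genes are all members, other measured Schlafen-named genes, up to 4 genes past the test with the lowest p in a list or among the neighbours, and the 3 nearest profiles of each rising member, without predicted genes and receptors. Further genes were named after their values were seen. Lists also covered B lymphocytes, natural killer cells and granulocytes. Alternatives covered scaling, dim genes, probe choice, variance model, replicate block and left-out arrays.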

Additional observations from a re-analysis of the deposited data

How the results depend on the processing

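All 14 alternative settings were run. Of the 7 Schlafen genes, 5 passed as higher in KO188 with arrays centred on their medians, with quantile normalization, with probe sets averaged per gene, with every probe set on its own, with a trended robust variance, with the replicate block and without each array in turn, so the range over left-out arrays is 5 to 5. With dim genes left out, by the 50th percentile or by the receptor guide, Slfn1, Slfn4 and Slfn5 were not tested and 4 of 4 passed. The log2 difference ran from 2.16 to 2.27 for Slfn2, 2.09 to 2.16 for Slfn8, 1.19 to 1.26 for Slfn9, 0.50 to 0.57 for Slfn3 and 0.37 to 0.52 for Slfn5, whose adjusted p ran from 0.0027 to 0.048. Slfn1 (adjusted p 0.071 to 0.27) and Slfn4 (0.18 to 0.95) passed under none. Slfnl1, which did not pass, was -0.07 and ran from -0.20 to 0.047 with 1 array left out, turning without KO188 replicate 1, and the cause was not tested. Same-numbered arrays deviated from their group means with correlations of 0.018, 0.010 and -0.028 across genes. For differently numbered arrays the correlations ran from -0.035 to 0.030. These values gave no sign that the numbers pair the samples, but with so few arrays they cannot exclude it. With the replicate block 5 Schlafen genes passed, 27 of the 54 measured genes of the other Schlafen-named, interferon, quiescence, transfer RNA and T lymphocyte lists (29 without it), 8 of 20 neighbours (7) and 5019 of all tested genes (5937). Over all genes the calls split into 2643 higher and 3294 lower, and with arrays centred on their medians into 2007 and 4505, which lowers the higher calls from 44.5% to 30.8% of all calls. Calls in dim genes are limited by signal over background. Of 763 values of 56 named genes under an alternative, 747 kept their direction and side of the threshold, 13 (Cd28, Cd53, Lig3 and Ifnar1, given above) lost a call, 2 (Mir188) gained a call and 1 turned.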

Other observations

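Unlike the T lymphocyte, macrophage and platelet lists above, the B lymphocyte, natural killer cell and granulocyte lists showed no call beside the Schlafen differences. Of 7 B lymphocyte markers, 8 natural killer cell markers and 12 granulocyte markers, 0 passed limma's test in either direction over all genes, and 1, 2 and 0 had an unadjusted p under 0.05. Their median differences were -0.02, -0.03 and 0.02, and 5, 7 and 8 of them lay at or below the receptor guide in both groups, where differences are compressed.

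Some deposited values are exactly equal between arrays. Among the members, Slfn5 read the same value on KO188 replicates 2 and 3, Slfn9 on KO188 replicates 1 and 3, and Slfn4 on WT replicate 3 and KO188 replicate 2. Over all tested genes, 26.5% held at least 1 such pair within a group and 37.4% held one among the 6 arrays. Equal values lower the spread within a group, on which limma's test rests. Without either array of its equal pair, Slfn5 passed limma's test with adjusted p = 0.029 and 0.032, and Slfn9 with adjusted p = 3.9e-05 and 4.0e-05.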
